A study of Oryza sativa with 6 samples.

Results

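The IP-G4 peaks described here were found in 1 BG4-DNA-IP-seq library and had no counterpart in the other 3. They were selected by peak position on the stretch of rice chromosome 1 that the lists of all 4 libraries cover (Chr1:1-5855384, MSU v7.0): a single-library peak shares no base with any peak of the other 3 libraries. Of 3052 peaks on this stretch, 348 (11.4%) were single-library peaks, 468 overlapped 1 other library, 710 overlapped 2, and 1526 (50%) overlapped all 3 and are called common peaks below. When the overlapping peaks of the 4 lists were joined, 1163 loci resulted, and the single-library peaks made up 348 of them (29.9%), nearly as many as the 372 loci with a peak in every library (32.0%), called common loci.

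G-quadruplexes (G4s) are DNA structures in which guanine-rich strands fold into stacked planes of guanines around a monovalent cation, and K+ generally stabilizes them better than Na+. BG4 is an antibody that recognizes the folded structure, so that sequencing of the DNA it pulls down gives peaks where G4s formed. A peak caller compares the reads at each position with an input library and keeps positions that pass a p-value threshold. The −log10 p-value of a peak is higher the less its reads are expected from the input, and its fold enrichment is the ratio of its signal to the input.

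The DNA came from 2-week-old wild-type rice seedlings (Oryza sativa, japonica), the same for both groups, and was fixed with formaldehyde and fragmented. It was denatured and folded again in PEG200, a crowding agent, with KCl (K+PEG) or NaCl (Na+PEG), so that the cation of this step is the difference between the groups. Both groups met KCl in the later antibody and washing steps. Each group has 2 libraries, labelled replicates 1 and 2, and the p-value and fold enrichment of each peak come from the authors' comparison with input DNA without BG4. The lists hold no read counts. Only the beginning of Chr1 was used for each library, and neither the sequence nor the genes of MSU v7.0 were used here, so no peak is tied to a gene.

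Single-library peaks were more frequent in both K+PEG libraries than in either Na+PEG library. There were 104 in K+PEG replicate 1, which is 13.9% of its 748 peaks (95% Wilson interval 11.6 to 16.6). K+PEG replicate 2 had 123, or 14.1% of 871 peaks (12.0 to 16.6). Na+PEG replicate 1 had 83, or 10.3% of 803 peaks (8.42 to 12.6), and Na+PEG replicate 2 had 38, or 6.03% of 630 peaks (4.43 to 8.17). The intervals cover counting error only. The K+PEG libraries thus held 227 of the 348 peaks (65.2%), with a mean of 113.5 ± 13.4 per library (SD, n = 2) against 60.5 ± 31.8 (SD, n = 2) under Na+PEG. The shares were 14.0% ± 0.154 and 8.18% ± 3.04 (SD, n = 2 each). The Na+PEG replicates therefore differed more from each other than the K+PEG replicates did, and no test was run, because these counts are what the rule itself uses.

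**Figure D1:**
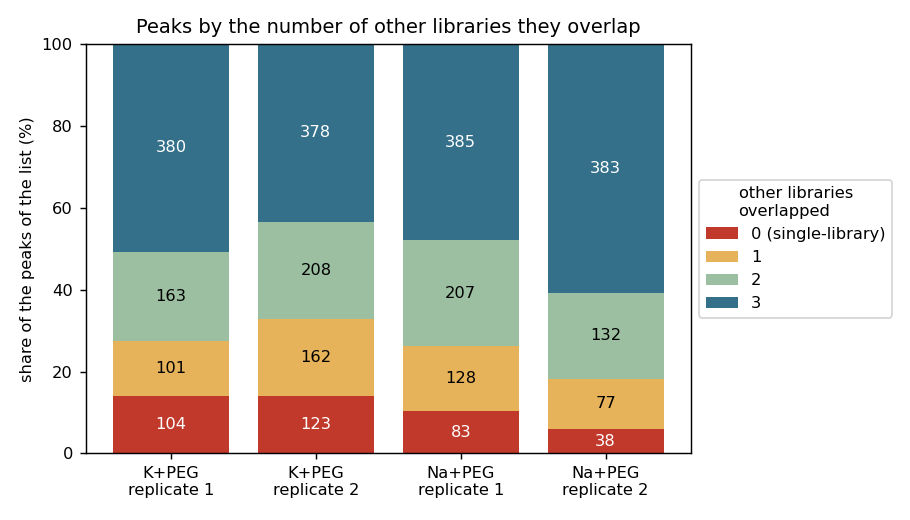
Share of the peaks of each list (y axis, %) that overlap 0, 1, 2 or 3 of the other libraries, with the number of peaks printed in each segment. The bottom segment, the single-library peaks, goes from 38 peaks in Na+PEG replicate 2 to 123 in K+PEG replicate 2, whereas common peaks number between 378 and 385 in every list.

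The numbers per library moved with the overlap required and the libraries compared. When at least 50% of each peak of a pair had to be shared, there were 157 single-library peaks in K+PEG replicate 1 (21.0%), 178 in K+PEG replicate 2 (20.4%), 138 in Na+PEG replicate 1 (17.2%) and 102 in Na+PEG replicate 2 (16.2%), so the shares lay closer together. Without K+PEG replicate 2, K+PEG replicate 1 had 160, Na+PEG replicate 1 had 164 and Na+PEG replicate 2 had 76. Without K+PEG replicate 1, Na+PEG replicate 2 had 58, and without Na+PEG replicate 1, K+PEG replicate 2 had 195.

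The difference between the cations was smaller when each list was cut to the same number of peaks. With the 630 strongest peaks of each list, as many as the shortest list has, K+PEG replicate 1 had 106 single-library peaks, against 104 in the full list. K+PEG replicate 2 then had 66 and Na+PEG replicate 1 had 63. Na+PEG replicate 2, whose list stayed whole, went from 38 to 79. The K+PEG and Na+PEG libraries overlapped at this list size, and the difference between their mean numbers went from 53 to 15 peaks per library. Of the 314 single-library peaks of these equal lists, 198 were also single-library peaks in the full lists. The other 116 had their counterparts among the peaks left out. With the strongest 50% of each list, the difference between the cations was 31 peaks per library. As a share it was 6.47 percentage points, against 5.83 points in the full lists. The difference in the full lists was 97 peaks without K+PEG replicate 1 and 106 without Na+PEG replicate 1. It was 40 peaks without K+PEG replicate 2 and 35.5 without Na+PEG replicate 2. In each of these comparisons, 1 condition is left with a single library that has no replicate to overlap. With 1 list fewer to compare, the share of single-library peaks over all lists went from 11.4% to 18.3% without K+PEG replicate 2 and to 15.1% without K+PEG replicate 1. The deeper library of each condition is known from the sequencing summary of the study. It was replicate 2 under K+PEG and replicate 1 under Na+PEG, and in both conditions this library had more peaks and more single-library peaks than the other. Across conditions the order was not that of depth. K+PEG replicate 1, the shallowest of the 4 libraries by uniquely mapped reads, had 104 single-library peaks, and Na+PEG replicate 1, the deepest, had 83. The part of sequencing depth in these counts was not tested.

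Single-library peaks were weaker than common peaks in every list. The median −log10 p-value was 7.76 in K+PEG replicate 1, against 13.1 for its common peaks. It was 7.30 against 22.0 in K+PEG replicate 2. In Na+PEG replicate 1 it was 6.80 against 14.5, and in Na+PEG replicate 2 it was 5.80 against 10.4. Averaged over the 4 libraries, the difference of the medians was -8.06 on the −log10 scale (from -14.7 to -4.62), and the gap was widest in K+PEG replicate 2. The ranges nevertheless overlapped. Common peaks reached down to −log10 p-values between 3.38 and 4.42, and between 1 and 7 single-library peaks of a list lay below its weakest common peak. At the other end, 10 of the 104 single-library peaks of K+PEG replicate 1 exceeded the median common peak of that list, but only 1 did so in each of the other lists. The mean of the medians was 7.53 ± 0.329 (SD, n = 2) under K+PEG and 6.30 ± 0.705 (SD, n = 2) under Na+PEG, and the libraries of the groups did not overlap. The medians of all peaks of the lists were 10.22 and 12.6 in K+PEG replicates 1 and 2. They were 10.24 and 8.65 in Na+PEG replicates 1 and 2, so over all peaks the groups did overlap. These p-values come from the calls that chose the peaks, so they are given without a test.

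Fold enrichment over input gave the same order within each list. The median of the single-library peaks was 3.69 in K+PEG replicate 1, 3.02 in K+PEG replicate 2, 2.92 in Na+PEG replicate 1 and 3.04 in Na+PEG replicate 2. The medians of the common peaks were 4.98, 5.39, 4.20 and 4.16, respectively. The single-library medians were thus between 0.561 and 0.741 times those of the common peaks. K+PEG replicate 1 stood above the other 3 libraries for the single-library peaks, whereas K+PEG replicate 2 was highest for the common ones. Over all peaks of the lists, the medians were 4.30 and 3.99 in K+PEG replicates 1 and 2. They were 3.52 and 3.77 in Na+PEG replicates 1 and 2. K+PEG replicate 1 was thus also highest over all peaks, so this rank is not particular to its single-library peaks.

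The median strength of the peaks was higher the more libraries shared them. In K+PEG replicate 2, the median −log10 p-value went from 7.30 for single-library peaks to 8.75, 11.9 and 22.0 for peaks that overlapped 1, 2 and 3 other libraries. In K+PEG replicate 1, peaks with 1 other library had a median of 8.36 and those with 2 had 8.99, closer to the 7.76 of single-library peaks than to the 13.1 of common peaks. Under Na+PEG, the corresponding medians for 1 and 2 other libraries were 8.26 and 9.36 in replicate 1 and 6.52 and 7.68 in replicate 2. In each list, the single-library peaks therefore formed the lower end of a graded series, with the largest step between 2 and 3 other libraries.

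**Figure D2:**
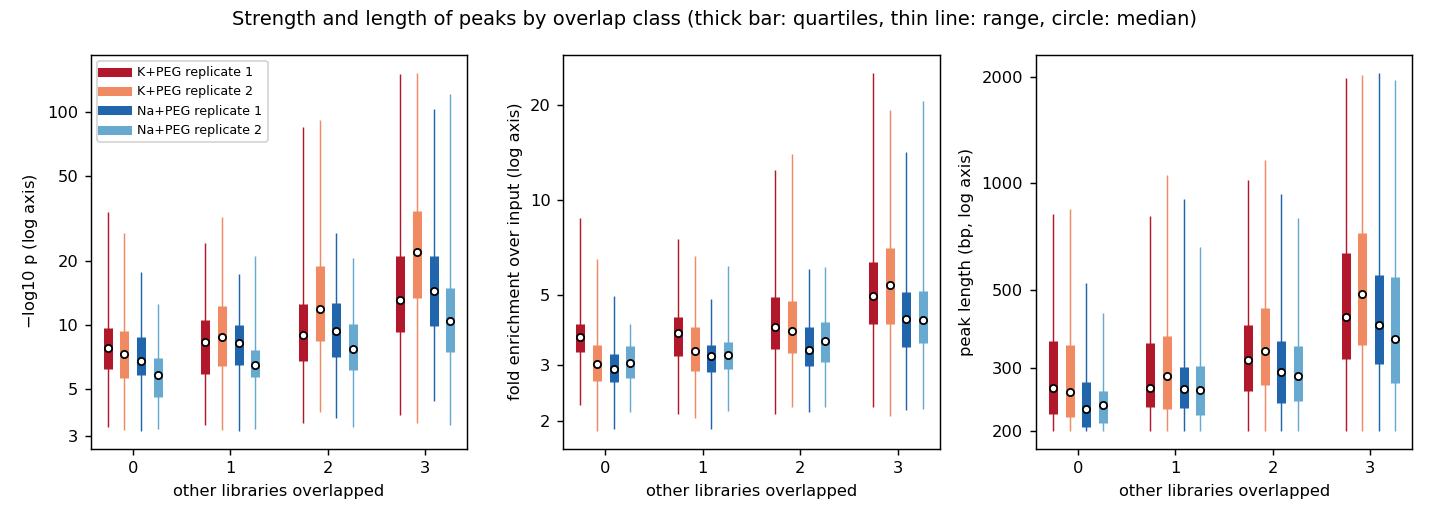
−log10 p-value, fold enrichment over input and peak length (y axes, log scale) of peaks that overlap 0, 1, 2 or 3 other libraries (x axis) in each list; circles are medians, thick bars quartiles and thin lines the full range. Single-library peaks (0) have the lowest median in all 3 panels for each list, and their ranges overlap those of the common peaks (3).

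Single-library peaks were concentrated among the weakest peaks of each list, but most of the weakest peaks were not single-library peaks. Each list was divided by p-value into 4 bins of equal size. The weakest bin, which holds 25% of the peaks of the first 3 lists and 25.1% of those of Na+PEG replicate 2, contained 46 of the 104 single-library peaks of K+PEG replicate 1 (44.2%). It contained 77 of 123 in K+PEG replicate 2 (62.6%), 49 of 83 in Na+PEG replicate 1 (59.0%) and 23 of 38 in Na+PEG replicate 2 (60.5%). Within the weakest bin itself, single-library peaks were 24.6% of the peaks in K+PEG replicate 1, 35.3% in K+PEG replicate 2, 24.4% in Na+PEG replicate 1 and 14.6% in Na+PEG replicate 2. Common peaks were 25.1%, 11.9%, 19.4% and 36.7% of the same bins. Even among the weakest peaks, most were therefore found again in at least 1 other library. In Na+PEG replicate 2 common peaks outnumbered single-library peaks there (58 against 23). In K+PEG replicate 1 common and single-library peaks were nearly equal in number there (47 against 46).

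The strongest bin (25% of the list of K+PEG replicate 1 and 24.9% of each of the other lists) held 3 single-library peaks in K+PEG replicate 1, 1 in K+PEG replicate 2, 1 in Na+PEG replicate 1 and none, 0 of 157 peaks, in Na+PEG replicate 2. K+PEG replicate 1 also had the largest share in the next bin below, 20 of 187 peaks (10.7%), against 5.50% in K+PEG replicate 2, 4.98% in Na+PEG replicate 1 and 1.90% in Na+PEG replicate 2. Its single-library peaks were thus spread further up its list than those of the other libraries.

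**Figure D3:**
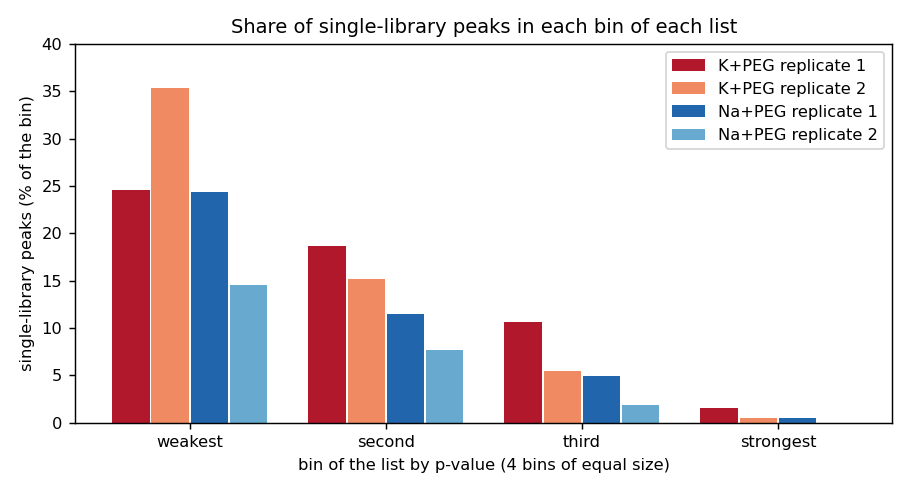
Single-library peaks as a share of the peaks (y axis, %) in each of 4 bins of equal size by p-value (x axis, from weakest to strongest), for the 4 libraries. The share falls from between 14.6% and 35.3% in the weakest bin to at most 1.60% in the strongest, with none in Na+PEG replicate 2.

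At a fixed range of p-values the libraries also differed. Among peaks with a −log10 p-value from 5 to below 7.5, single-library peaks were 35.2% of 128 in K+PEG replicate 2 (95% Wilson interval 27.4 to 43.8). They were 21.9% of 146 in K+PEG replicate 1 (16.0 to 29.3), 23.9% of 163 in Na+PEG replicate 1 (18.0 to 31.0) and 9.64% of 197 in Na+PEG replicate 2 (6.26 to 14.6). From 10 to below 15, the shares were 11.2% (21 of 187 peaks) in K+PEG replicate 1 and 9.64% (19 of 197) in K+PEG replicate 2. They were 5.83% (12 of 206) in Na+PEG replicate 1 and 0.714% in Na+PEG replicate 2. The last share rests on 1 peak of 140 (95% Wilson interval 0.126 to 3.93). A p-value of the same size stands for different fold enrichments at different depths, so these ranges do not hold peaks of equal enrichment.

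The strongest single-library peak lay at Chr1:745373-745731 in K+PEG replicate 1, with a −log10 p-value of 34.0 and a fold enrichment of 8.78, which ranked 41 among the 748 peaks of the list. The second strongest of this library was its neighbour at Chr1:746984-747353 (20.7; 6.17-fold), and the third was Chr1:4967298-4967738 (16.5; 5.86-fold). The nearest peak of another library was 5608, 3986 and 2895 bp away, respectively. In K+PEG replicate 2 the strongest was Chr1:3204953-3205432, with a −log10 p-value of 26.9 and a fold enrichment of 6.49. It lay only 241 bp from a peak of another library but 49501 bp from the nearest common peak of its list. The next were Chr1:1470514-1470808 (18.6) and Chr1:4822618-4822918 (17.5).

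The strongest single-library peaks under Na+PEG were lower. Chr1:1642999-1643520 of Na+PEG replicate 1 had a −log10 p-value of 17.6 and a fold enrichment of 4.96, and at 522 bp it was also the longest single-library peak of this list. It was followed by Chr1:5188349-5188652 (14.2) and Chr1:143986-144270 (13.7). In Na+PEG replicate 2, Chr1:5224418-5224800 reached 12.5 with a fold enrichment of 3.87, ahead of Chr1:800075-800281 (9.21) and Chr1:5770933-5771154 (8.96). The weakest single-library peak of each list had the lowest −log10 p-value of that list: Chr1:2124736-2124981 at 3.33 in K+PEG replicate 1 and Chr1:236214-236413 at 3.20 in K+PEG replicate 2. Under Na+PEG it was Chr1:1162883-1163127 at 3.19 in replicate 1 and Chr1:1592046-1592283 at 3.25 in replicate 2.

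Single-library peaks were also short. Their median length was 264.5 bp in K+PEG replicate 1, 258 bp in K+PEG replicate 2, 231 bp in Na+PEG replicate 1 and 236.5 bp in Na+PEG replicate 2. The common peaks of the same lists had medians of 418.5, 487.5, 397 and 364 bp. Averaged over the 4 libraries, the difference of the medians was thus -169 bp (from -229.5 to -127.5 bp). Peaks that overlapped 1 other library had medians of 265, 286.5, 262.5 and 260 bp in the same order of lists. In each list this was closer to the single-library median than to the common one, so shortness is not particular to single-library peaks. The shortest peak in every list was 200 bp long, and single-library peaks of exactly this length numbered 13 (12.5%), 12 (9.76%), 13 (15.7%) and 2 (5.26%), against 3 (0.789%), 1 (0.265%), 1 (0.260%) and 12 (3.13%) of the common peaks. Na+PEG replicate 2 was thus the library in which the minimum length set the classes least apart. A short peak has fewer bases that a peak of another list could share, so length is bound up with the rule.

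The median length was 261 ± 4.60 bp (SD, n = 2) in the K+PEG libraries and 233.75 ± 3.89 bp (SD, n = 2) in the Na+PEG libraries. This difference of 27.5 bp was larger than the spread between replicates. The medians of all peaks of the lists, 347.5 and 362 bp under K+PEG and 314 and 315 bp under Na+PEG, lay in the same order. The longest single-library peaks were Chr1:966387-967207 (821 bp) in K+PEG replicate 1, Chr1:5284493-5285338 (846 bp) in K+PEG replicate 2 and Chr1:801272-801701 (430 bp) in Na+PEG replicate 2. The single-library peaks covered 10.1% and 9.44% of the bases under peaks in K+PEG replicates 1 and 2, and 7.02% and 4.01% in Na+PEG replicates 1 and 2.

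Most single-library peaks had no peak of another list directly beside them, although the rule itself leaves out every overlap. No comparison value for these gaps to other libraries was computed. The median gap to the nearest peak of any other library was 1683 bp in K+PEG replicate 1, 1210 bp in K+PEG replicate 2, 1819 bp in Na+PEG replicate 1 and 1865.5 bp in Na+PEG replicate 2. Of the 348 peaks, 7 (2.01%) lay within 100 bp of a peak of another library, 73 (21.0%) within 500 bp and 127 (36.5%) within 1000 bp, whereas 52 (14.9%) lay more than 5000 bp away. K+PEG replicate 2 had the most close neighbours, with 38 of 123 peaks (30.9%) within 500 bp, against 17.3% in K+PEG replicate 1, 15.7% in Na+PEG replicate 1 and 10.5% in Na+PEG replicate 2. In the same library, 40 of the 123 (32.5%) also had another peak of their own list within 500 bp, against 21.7% of its common peaks. In the other libraries this share was 21.2%, 15.7% and 15.8% for single-library peaks and 17.1%, 20.3% and 17.2% for common peaks.

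The edge of the rule is 1 shared base. Just inside it, K+PEG replicate 1 had a peak at Chr1:3115312-3115535 (−log10 p-value 7.66) and K+PEG replicate 2 one at Chr1:3115540-3115967 (6.39), which lay 4 bp apart and are each counted as single-library peaks. The closest in Na+PEG replicate 1 was Chr1:1665092-1665293, at a gap of 50 bp, and in Na+PEG replicate 2 it was Chr1:510502-510725, at a gap of 107 bp. Just outside it, Chr1:1087308-1087669 of K+PEG replicate 1 (4.85) shared 23 bp with Chr1:1087647-1087911 of Na+PEG replicate 1 (10.8). Chr1:2427564-2427768 of K+PEG replicate 2 shared 34 bp with a Na+PEG replicate 2 peak, and Chr1:208716-208941 of Na+PEG replicate 2 shared 20 bp with a K+PEG replicate 2 peak. Pairs of single-library peaks from different libraries within 500 bp of each other were few, 7 in all. Of these, 4 joined the K+PEG replicates, the libraries with the most single-library peaks. The others joined a K+PEG library with Na+PEG replicate 1.

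The nearest peak came from the replicate of the same condition most often in only 1 of the 4 libraries. For K+PEG replicate 1 it was K+PEG replicate 2 in 48 of 104 cases (46.2%), but for K+PEG replicate 2 it was Na+PEG replicate 1 in 54 of 123 (43.9%) and K+PEG replicate 1 in 46 (37.4%). For Na+PEG replicate 1 it was K+PEG replicate 2 in 39 of 83 (47.0%) and its own replicate in 17 (20.5%). For Na+PEG replicate 2 it was K+PEG replicate 2 in 16 of 38 (42.1%) and its own replicate in 8 (21.1%). The lists differ in size, and K+PEG replicate 2, the longest list, was the nearest most often for each of the other 3 libraries.

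Single-library peaks lay somewhat farther from the nearest common peak than common peaks did. The distance to the nearest common peak of the same list had a median of 6227 bp for the single-library peaks of K+PEG replicate 1 and 4418 bp from a common peak to the nearest other one. It was 4991 against 4519 bp in K+PEG replicate 2, 5478 against 4157 bp in Na+PEG replicate 1, and 5931 against 4196 bp in Na+PEG replicate 2. The ratio of these medians was from 1.10 to 1.41. Peaks that overlapped 1 other library had medians of 5092 and 4640 bp in K+PEG replicates 1 and 2. In Na+PEG replicates 1 and 2 these were 5163 and 4636 bp. They too lay farther away than common peaks in every list, so this is not particular to single-library peaks. The distances depend on how many peaks enter. With the strongest 50% of each list, the medians for single-library peaks were 17733, 16385, 14532 and 15166.5 bp in K+PEG replicates 1 and 2 and Na+PEG replicates 1 and 2. Without Na+PEG replicate 2, that of K+PEG replicate 1 was 3873 bp. With a shared 50% of each peak required, that of K+PEG replicate 2 was 7918.5 bp. Within 1000 bp of a common peak were 12.5%, 14.6%, 15.7% and 13.2% of the single-library peaks and 16.1%, 14.6%, 18.4% and 17.5% of the common peaks, so K+PEG replicate 2 showed the least difference. The nearest cases were Chr1:3115312-3115535 in K+PEG replicate 1 at 112 bp, Chr1:1637685-1638048 in K+PEG replicate 2 at 132 bp, Chr1:2952445-2952659 in Na+PEG replicate 1 at 253 bp and Chr1:5770933-5771154 in Na+PEG replicate 2 at 188 bp.

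**Figure D4:**
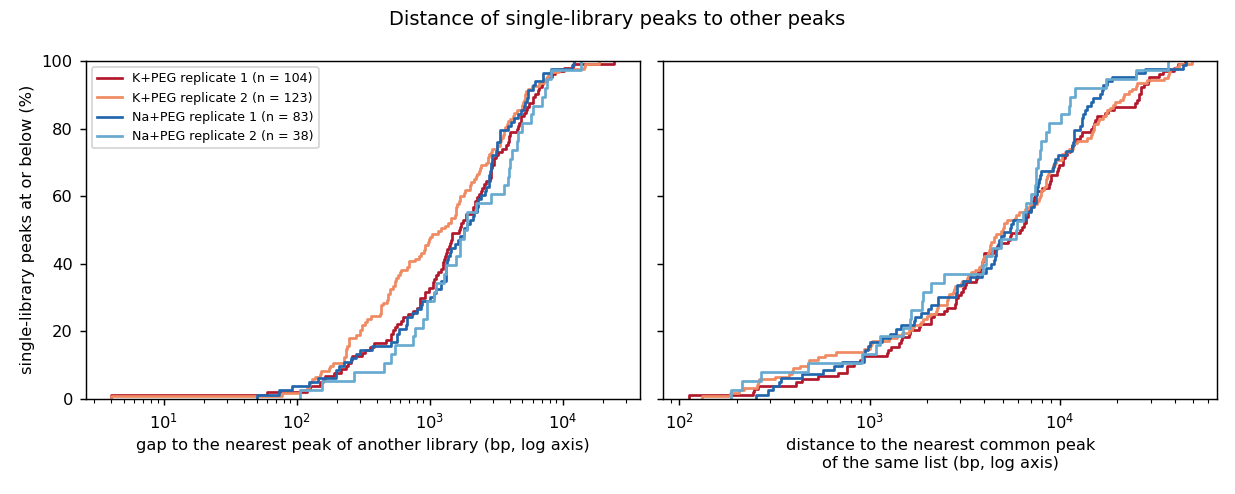
Cumulative share of the single-library peaks of each list (y axis, %) by the gap to the nearest peak of another library (left) and by the distance to the nearest common peak of the same list (right), in bp on a log axis. K+PEG replicate 2 has the smallest median gap, 1210 bp, and the medians on the right lie between 4991 and 6227 bp.

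The farthest cases lay in intervals without common loci. Chr1:3204953-3205432 of K+PEG replicate 2 (49501 bp) and Chr1:3208656-3208879 of Na+PEG replicate 1 (46056 bp) shared such an interval, which at 119366 bp was the longest between 2 neighbouring common loci. It held 8 single-library peaks from all 4 libraries. Chr1:2491861-2492232 of K+PEG replicate 1 was 45475 bp from a common peak, and Chr1:3404840-3405039 of Na+PEG replicate 2 was 36696 bp away. There were 26 intervals of at least 40 kb, a length chosen after the distances had been seen. They took up 27.5% of the stretch and held 100 of the 348 single-library peaks (28.7%), so per base single-library peaks were about as dense there as elsewhere. Common peaks, 50% of all peaks, are absent from these intervals by definition. The share of single-library peaks among the peaks there is therefore raised by the choice of interval.

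Along the stretch, single-library peaks were found nearly everywhere. In 12 consecutive windows of 500 kb, the last of which is cut short by the end of the stretch, their number ranged from 5 to 23 with a median of 6 in K+PEG replicate 1, from 3 to 16 (median 10.5) in K+PEG replicate 2, from 3 to 12 (median 6.5) in Na+PEG replicate 1, and from 0 to 9 (median 2) in Na+PEG replicate 2. The window with 23 stood apart. It is Chr1:2000001-2500000, which held 69 of the 748 peaks of K+PEG replicate 1 and 22.1% of its single-library peaks. The next highest window of this library had 12 single-library peaks. In the same window, K+PEG replicate 2 had 11, Na+PEG replicate 1 had 7 and Na+PEG replicate 2 had 4, and common peaks numbered from 25 to 27 in each list. Without this window, 81 single-library peaks were left in K+PEG replicate 1 and 303 in all libraries, and the difference between the K+PEG and Na+PEG means was 41.5 in place of 53. This alternative was added after the windows had been seen.

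Within this window, 14 single-library peaks of K+PEG replicate 1 lay between positions 2423630 and 2492232, a span of 68.6 kb that was its densest run of up to 100 kb. K+PEG replicate 1 had 19 peaks there, against 8, 7 and 7 in K+PEG replicate 2, Na+PEG replicate 1 and Na+PEG replicate 2, and each list had 1 common peak. The 14 peaks were of middling strength, with −log10 p-values from 4.59 to 11.7 (median 8.15) and fold enrichments from 2.67 to 4.70. The densest spans of the other libraries held 8 single-library peaks in K+PEG replicate 2, 6 in Na+PEG replicate 1 and 4 in Na+PEG replicate 2. What sets this span apart in K+PEG replicate 1 was not tested.

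Some neighbouring single-library peaks came from the same library. Runs of 3 or more in a row, with no peak of another library between them, were found 3 times in K+PEG replicate 1, 2 times in K+PEG replicate 2, 1 time in Na+PEG replicate 1 and 0 times in Na+PEG replicate 2. The longest run had 4 peaks, at Chr1:2471623-2474556 in K+PEG replicate 1, with −log10 p-values from 4.82 to 10.9. All 3 runs of K+PEG replicate 1 lay in the dense span. The runs of K+PEG replicate 2 were at Chr1:1266432-1268003 and Chr1:2940880-2944902, and that of Na+PEG replicate 1 was at Chr1:1161343-1163574. Most single-library peaks were in no run. With pairs included, runs held 28.8% of the single-library peaks of K+PEG replicate 1, 26.0% of those of K+PEG replicate 2, 20.5% of those of Na+PEG replicate 1 and 15.8% of those of Na+PEG replicate 2. Runs of shared peaks were not counted, so no value for other peaks stands beside these shares.

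**Figure D5:**
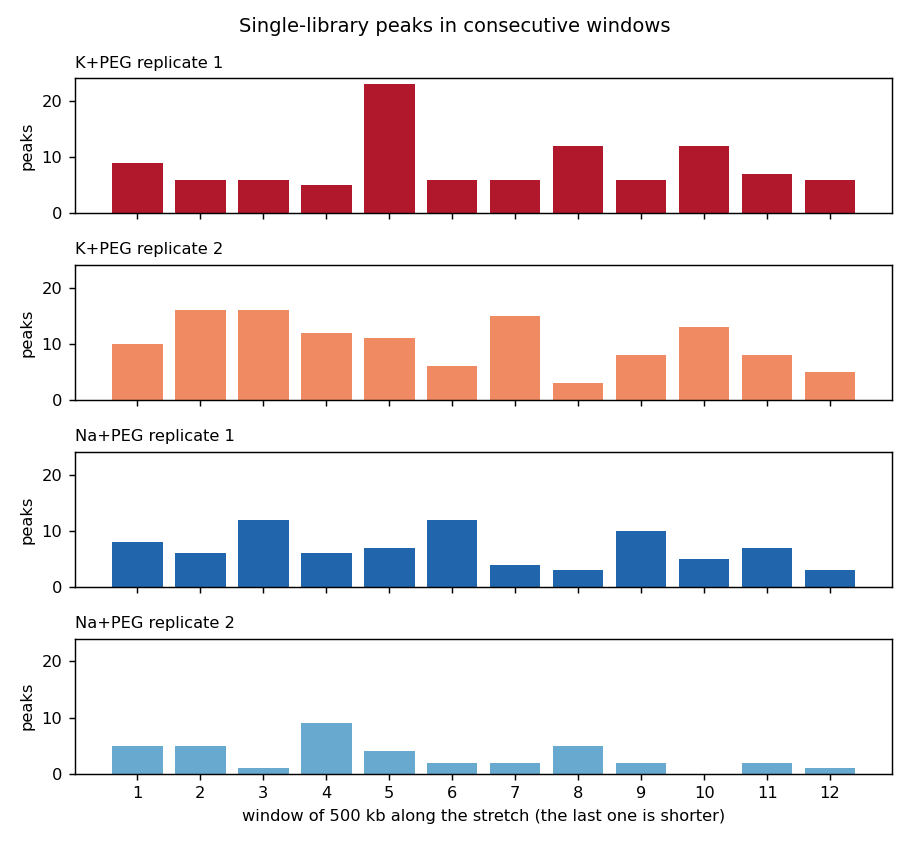
Number of single-library peaks (y axis) in 12 consecutive windows of 500 kb, the last one shorter, along the stretch (x axis, window number), in 1 panel for each library. Window 5 holds 23 single-library peaks of K+PEG replicate 1, against 11, 7 and 4 in the other libraries.

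None of the 348 single-library peaks overlapped the deposited K+-specific (205 on this stretch) or Na+-specific (121) IP-G4s. This follows from the definition of those IP-G4s, which need a peak in both replicates of a condition. The median distance from a single-library peak to the nearest K+-specific IP-G4 was between 8936.5 and 11605 bp in the 4 libraries, and to the nearest Na+-specific one between 13515 and 17432.5 bp. The single-library peaks of either cation therefore do not enter the lists of cation-specific IP-G4s.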

How the data were processed

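BG4-DNA-IP-seq of 2 K+PEG and 2 Na+PEG libraries was analysed from the peak lists. The authors cleaned the reads (Trim Galore), mapped them to the MSU v7.0 genome (BWA mem), removed duplicates (SAMtools) and called peaks per library with MACS, without a shifting model, at a p-value threshold and with input as control. The deposited lists give, as the authors' peak caller wrote them, the fold enrichment (a ratio), p-values and q-values as −log10, and a score. Tested on all peaks, that score equals 10 times the −log10 p-value without its decimals. The −log10 q-value and the score were not used. For the deposited cation-specific IP-G4s, only positions are given.

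Each list ends in a line that is not complete, which was dropped, and peaks that end by position 5855384 of Chr1 were kept. Overlaps and distances, measured in bp between peak edges, were computed in Python 3.11.15 with numpy 2.4.6 and pandas 2.3.3, Wilson intervals with scipy 1.17.1, and the set operations were tested on simulated data. The peaks and comparisons were chosen with earlier results of these data known. Since peak calls chose the peaks, no test was run. Named loci are, per library, the 3 strongest, the longest, the weakest, those at the edge of the rule, and those nearest to and farthest from a common peak; runs and dense spans were chosen after their values had been seen. Alternatives were a larger overlap, a tolerated gap, stronger or equally long lists, each library left out, peaks that begin on the stretch, means, and common peaks of any library. Gene position, GC content and G-tracts were planned but not analysed here, because no sequence or annotation of MSU v7.0 was used, nor were the input libraries.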

Additional observations from a re-analysis of the deposited data

How the results depend on the processing

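No paired analysis was possible because the results come from no test. When at least 50% of each peak of a pair had to be shared, single-library peaks numbered 575 (18.8% of all peaks), against 348 (11.4%) with 1 bp, and their mean distance of the 4 library medians to a common peak was 7613 bp, against 5657 bp. With the strongest 50% of each list there were 224 single-library peaks, 50 of which were also single-library peaks in the full lists, and the distance was 15954 bp. Fewer peaks enter by construction. With lists of equal size the distance was 7125 bp, and the difference between K+PEG and Na+PEG libraries was 15 peaks and 2.38 percentage points, against 53 peaks and 5.83 points. With means in place of medians, single-library peaks were shorter than common peaks by 219 bp (−219 bp, against −169 bp) and the distance was 8167 bp. Leaving out 1 library at a time, the number of single-library peaks ranged from 349 to 400 and their share from 15.1% to 18.3% (without K+PEG replicate 2), since each peak then has fewer lists to overlap, and the distance ranged from 4071 to 5333 bp. The difference between K+PEG and Na+PEG ranged from 35.5 to 106 peaks and from 4.23 to 10.9 points, the highest without Na+PEG replicate 1, and it was 97 peaks without K+PEG replicate 1. The lower −log10 p-value and fold enrichment of single-library peaks kept their sign in all alternatives run. The lists do not give sequencing depth, and its part in these results was not tested.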

Other observations

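Loci with a peak in exactly 2 libraries numbered 215. The most frequent pair, at 71 loci, was K+PEG replicate 2 with Na+PEG replicate 1, which had the longest lists (871 and 803 peaks). It came ahead of the K+PEG replicates with each other, at 54, and the Na+PEG replicates with each other, at 18. Loci that 3 libraries shared numbered 228, and the library without a peak was Na+PEG replicate 2 at 101 of them, K+PEG replicate 1 at 75, Na+PEG replicate 1 at 31 and K+PEG replicate 2 at 21. The library that most often lacked a peak thus had the shortest list, and the one that least often lacked it had the longest.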
